A study of Danio rerio and Xenopus laevis and Xenopus tropicalis with 8 samples.

Results

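Zebrafish neuroectoderm cells at 6 h.p.f. (hours post fertilization, shield stage) were taken as the cell barcodes of a single-cell SLAM-seq library that held at least 2 counts of her3, labeled and unlabeled counts added. There were 481 such barcodes among 6847 that had at least 150 genes in the labeled and at least 150 in the unlabeled counts, and they are called her3 barcodes. The other 6366 are called other barcodes. The members were therefore chosen by their her3 values, and her3 itself is left out of the gene comparisons and of the totals behind their CPM. Count sums, depth and labeled share of barcodes include the her3 counts. Values of her3 are given only to describe the rule. All ratios below describe these barcodes and carry no test, since the genes were read in the same cells that her3 chose and only 1 library of pooled embryos was analyzed here.

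In this experiment wild-type embryos of the AB strain were injected with the nucleotide 4sUTP (4-thiouridine triphosphate) directly after fertilization, dissociated at shield stage, fixed in methanol and loaded on a droplet system. Transcripts made by the embryo take up the label, which is read as T-to-C changes after chemical conversion, whereas maternal transcripts stay unlabeled. New transcripts in which too few changes were seen are also counted as unlabeled. The her3 barcodes and the other barcodes share embryos, injection, stage and library, so that no treatment or genotype differs between them, and all embryos carried the label. Tomo-seq tables of 3 one-cell stage embryos, summed over all sections, gave the maternal level before transcription of the zygote.

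The neuroectoderm arises on the dorsal side of the ectoderm, where secreted antagonists such as Chordin keep BMP signaling low, and SoxB1 factors (sox2, sox3, sox19a) are among its early transcription factors. Wnt, FGF and retinoic acid signals from the margin then give the neural plate a posterior character, and their inhibition allows the anterior brain to form. her3 encodes a Hairy/Enhancer-of-split type repressor of the neural plate.

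The her3 barcodes held 862926 labeled and 1065173 unlabeled counts in sum, against 7635074 labeled and 11894766 unlabeled counts in the other barcodes. A her3 barcode had a median of 3614 counts (10th to 90th percentile 2203 to 6086), and another barcode a median of 2940.5 (1128 to 4823). Because a deeper barcode reaches 2 her3 counts more easily, shares of barcodes were also computed after thinning every barcode to 700 labeled and 1000 unlabeled counts. This kept 456 of the 481 her3 barcodes (94.8%) and 4749 of the 6366 other barcodes (74.6%). The barcodes taken held her3 at 94.1 CPM (counts of the gene per 1000000 counts, labeled and unlabeled added), and barcodes under the gene minimum, in which free RNA and shallow cells cannot be told apart, held it at 75.6 CPM. The part of free RNA in single her3 counts was not tested. The rule of 2 counts was met by 1 of 117 barcodes with at least 20 counts of the enveloping layer genes krt4, krt92, krt97 and cldne (0.855%, exact 95% interval 0.0216 to 4.67%) and by 4 of 474 barcodes with at least 2 counts of the mesoderm gene msgn1 (0.844%, 0.230 to 2.15%). It was also met by 10 of 261 barcodes with at least 2 counts of the axial mesoderm gene noto (3.83%, 1.85 to 6.93%). Of 68 barcodes with at least 3 counts of foxi1, gata2a, gata3, tp63 and tfap2a, 1 met it (1.47%, 0.0372 to 7.92%). Over all barcodes 7.02% met it. These shares use the her3 counts that chose the members, so they describe the rule and are no check of it. Intervals here and below are exact and cover counting error only.

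The her3 counts that chose the members are given here as a description of the rule, not as a finding. Of these counts in the members, 1091 were labeled and 377 unlabeled, and 20 members had no labeled her3 count. The members ranged up to 13 her3 counts, with 229 barcodes at 2 counts, 132 at 3, 86 at 4 to 5 and 34 at 6 or more.

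The label was checked against the marker genes sox3, mdkb, crabp2b and alcamb. mdkb, crabp2b and alcamb were higher in her3 barcodes by more than 1.5-fold in labeled RNA, the size used here to call a gene higher or lower, beside 2.54% of all genes tested, and sox3 was not. mdkb, which encodes the heparin-binding growth factor midkine, had 115 labeled CPM in her3 barcodes (95% interval 93.4 to 140) and 30.6 labeled CPM in other barcodes, a ratio of 3.75 (2.93 to 4.76). alcamb, a cell adhesion molecule of the immunoglobulin family, had 198 labeled CPM in her3 barcodes and 107 labeled CPM in other barcodes, a ratio of 1.85 (1.56 to 2.19). crabp2b, which encodes a binding protein for retinoic acid, had 55.7 labeled CPM in her3 barcodes and 33.4 labeled CPM in other barcodes, a ratio of 1.67 (1.2 to 2.28). sox3 had 541 labeled CPM in her3 barcodes (493 to 592) and 491 labeled CPM in other barcodes, a ratio of 1.10 with an interval of 0.998 to 1.21 that included 1.

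sox3 was spread over many of the other barcodes, and it was low in barcodes of other lineages. After thinning, 32% of her3 barcodes (27.8 to 36.5%) and 28% of other barcodes had a labeled sox3 count. The share was 3.94% among barcodes with at least 2 msgn1 counts and 6.73% among enveloping layer barcodes. Labeled sox3 was at 541 CPM in her3 barcodes, against 269 CPM in 251 axial mesoderm barcodes (at least 2 counts of noto), 75.8 CPM in 116 enveloping layer barcodes and 71.1 CPM in 470 msgn1 barcodes. alcamb went the other way, since its labeled level was 473 CPM in the enveloping layer barcodes and 198 CPM in the her3 barcodes, and a labeled count after thinning was found in 12.7% of her3 barcodes and in 19.2% of enveloping layer barcodes. mdkb was low in all of these lineages, with 115 CPM in her3 barcodes, 11.7 CPM in axial mesoderm barcodes, 1.37 CPM in msgn1 barcodes and no labeled count in enveloping layer barcodes. crabp2b stood at 37.9 labeled CPM (19.6 to 66.2) in enveloping layer barcodes, an interval that overlaps that of the her3 barcodes (41.1 to 73.8). Of the 4 markers, mdkb was thus higher in her3 barcodes than in the other barcodes and in each of these lineages, whereas sox3, alcamb and crabp2b each did not stand clear of at least 1 of these groups.

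**Figure D1:**
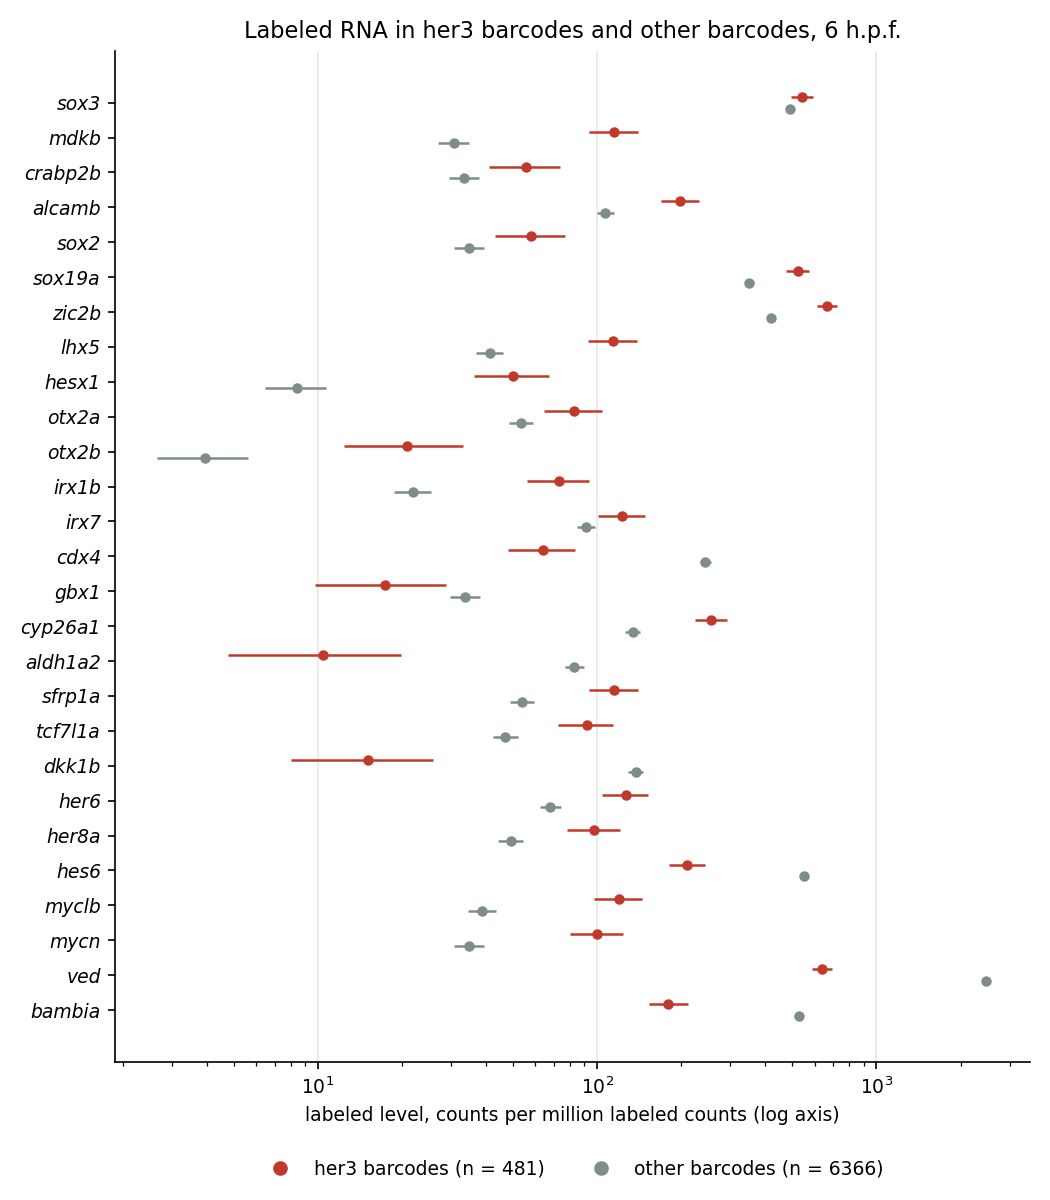
Labeled level of 27 listed genes in her3 barcodes (red) and other barcodes (gray), in labeled CPM on a log axis, with exact 95% intervals of the counts. mdkb stands at 115 CPM in her3 barcodes and 30.6 CPM in other barcodes, whereas sox3 nearly coincides at 541 and 491 CPM, and ved is lower in her3 barcodes at 639 against 2476 CPM.

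Among 3812 genes with at least 200 labeled counts, 97 (2.54%) were at least 1.5-fold higher and 418 (11%) at least 1.5-fold lower in her3 barcodes, and the median log2 ratio was 0.03. Among the 15 genes with the highest labeled ratio were mdkb, irx1b, myclb, mycn, lhx5, CR381647.1, auts2b, CR450686.3, si:ch211-170d8.2, pkdccb, sfrp1a, kif26ab, foxb1a and si:ch73-141c7.1. irx1b, an Iroquois homeobox gene of the neural plate, had 73.1 labeled CPM in her3 barcodes and 21.9 labeled CPM in other barcodes, a ratio of 3.34 (2.46 to 4.49). The Myc family genes myclb and mycn followed. myclb had 120 labeled CPM in her3 barcodes and 38.6 labeled CPM in other barcodes (ratio 3.09, 2.45 to 3.88), and mycn had 99.8 labeled CPM in her3 barcodes and 34.7 labeled CPM in other barcodes (ratio 2.87, 2.23 to 3.68). The other named genes of this group lay between ratios of 2.76 and 1.99, among them the forkhead gene foxb1a at 2.0 (1.52 to 2.59).

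The SoxB1 factors and related genes differed among themselves. Of 11 genes of the list of SoxB1 and pluripotency-type factors with enough labeled counts, 4 were at least 1.5-fold higher and none lower, beside 2.54% and 11% of all genes, and the median log2 ratio was 0.14. zic2b, a zinc finger factor of the neural plate, had 666 labeled CPM in her3 barcodes and 419 labeled CPM in other barcodes (ratio 1.59, 1.45 to 1.74), and its paralog zic2a had 75.4 labeled CPM in her3 barcodes and 95 labeled CPM in other barcodes. sox2 had 58 labeled CPM in her3 barcodes and 34.7 labeled CPM in other barcodes (ratio 1.67, 1.21 to 2.27). sox19a, at 522 labeled CPM in her3 barcodes and 350 labeled CPM in other barcodes, had a ratio of 1.49 (1.35 to 1.65), just short of the size used for a call. sox2 stood at 11.7 labeled CPM in the axial mesoderm barcodes. When barcodes of the mesoderm and enveloping layer rules were left out of the other barcodes, the labeled log2 ratios of sox2 and zic2b were 0.50 and 0.50, below the limit.

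Of 14 genes of the anterior neural plate only lhx5 and otx2a had enough labeled counts, and both were higher in her3 barcodes, beside 2.54% of all genes. lhx5, a LIM homeobox gene of the forebrain, had 114 labeled CPM in her3 barcodes (92.3 to 139) and 41.1 labeled CPM in other barcodes, a ratio of 2.76 (2.18 to 3.48). otx2a had 82.4 labeled CPM in her3 barcodes and 53.4 labeled CPM in other barcodes (ratio 1.54, 1.18 to 1.99), and its log2 ratio was 0.32, short of the limit, when 2 labeled her3 counts were required of the members. The remaining genes of the list had under 200 labeled counts. Among them hesx1, a homeobox repressor of the anterior neural plate, gave 43 labeled counts in the 481 her3 barcodes and 64 in the 6366 other barcodes, a CPM ratio of 5.95 (3.95 to 8.90), and otx2b gave 18 labeled counts in her3 barcodes and 30 in other barcodes, a CPM ratio of 5.32 (2.79 to 9.85). otx1 had a ratio of 2.23 (1.48 to 3.29). Others pointed the other way or gave no signal, since six3b had 3 labeled counts in her3 barcodes and 58 in other barcodes (ratio 0.458, 0.0918 to 1.41), six7 had 1 and 33 counts in these groups (ratio 0.268, 0.0066 to 1.60), and fezf2, rx3 and barhl2 had none in her3 barcodes and at most 2 in other barcodes. After thinning, 3.73% of her3 barcodes (2.19 to 5.90%) and 0.484% of other barcodes had a labeled hesx1 count, while none was found in 104 enveloping layer barcodes (upper bound 3.48%) or 431 msgn1 barcodes (upper bound 0.852%). Before thinning, the msgn1 barcodes held 2 labeled hesx1 counts, in 0.426% of them.

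Posterior genes were divided. Of 5 genes of this list with enough labeled counts, 1 was higher and 3 were lower, beside 2.54% and 11% of all genes. cdx4, a caudal-type homeobox gene of the posterior body, had 63.8 labeled CPM in her3 barcodes and 244 labeled CPM in other barcodes, 3.82-fold lower (2.92 to 5.09). vgll4l was 2.69-fold lower (1.82 to 4.15), and gbx1, which marks the prospective hindbrain, was 1.93-fold lower (1.15 to 3.51) with 15 labeled counts in her3 barcodes. irx7, at 123 labeled CPM in her3 barcodes and 91.3 labeled CPM in other barcodes, had a ratio of 1.35 (1.09 to 1.65), and irx1b was the gene that was higher. Hox genes gave next to no signal at this stage, since hoxb1b had 2 labeled counts in her3 barcodes and 21 in other barcodes, and hoxb1a, hoxa1a and hoxd4a had none.

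Of 3 retinoic acid genes with enough labeled counts, 2 were higher and 1 was lower, beside 2.54% and 11% of all genes. cyp26a1, the enzyme that degrades retinoic acid, had 256 labeled CPM in her3 barcodes (224 to 293) and 134 labeled CPM in other barcodes, a ratio of 1.92 (1.65 to 2.22). aldh1a2, the enzyme that makes it, had 10.4 labeled CPM in her3 barcodes and 82.8 labeled CPM in other barcodes, 7.93-fold lower (4.15 to 17.4). In msgn1 barcodes aldh1a2 was at 393 CPM. cyp26a1 stood at 211 labeled CPM (169 to 259) in the axial mesoderm barcodes, an interval that overlaps that of the her3 barcodes. crabp2b was the other gene of the list that was higher. Below the minimum of counts, dhrs3b had a ratio of 1.31 (0.688 to 2.30), an interval that included 1. rdh10a, with 8 labeled counts in her3 barcodes and 188 in other barcodes, was 2.65-fold lower (1.32 to 6.23).

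Most BMP pathway genes were lower. Of 16 genes with enough labeled counts none was at least 1.5-fold higher and 13 were lower, beside 2.54% and 11% of all genes, with a median log2 ratio of -1.24. The ventral homeobox repressors ved, vox and vent were 3.87-fold (3.56 to 4.22), 2.05-fold (1.87 to 2.25) and 2.04-fold (1.48 to 2.90) lower. The ligands bmp2b, bmp7a and bmp4 were 3.97-fold, 2.07-fold and 3.15-fold lower, and the feedback inhibitor bambia was 2.95-fold lower (2.51 to 3.48) at 180 labeled CPM in her3 barcodes against 530 labeled CPM in other barcodes. The secreted antagonists chrd and nog1 were lower as well. chrd had 63.8 labeled CPM in her3 barcodes and 140 labeled CPM in other barcodes (2.20-fold lower, 1.67 to 2.93), and it stood at 945 CPM in the axial mesoderm barcodes. The 3 genes between the limits were admp, smad5 and id1, and id1 at 2201 CPM in her3 barcodes and 3269 CPM in other barcodes lay close to the limit (1.49-fold lower, 1.42 to 1.56).

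Wnt genes were divided, and most FGF genes lay between the limits. sfrp1a, a secreted Wnt inhibitor, had 115 labeled CPM in her3 barcodes and 53.7 labeled CPM in other barcodes, a ratio of 2.14 (1.70 to 2.67). tcf7l1a, a repressor of Wnt targets, had 91.7 labeled CPM in her3 barcodes and 46.9 labeled CPM in other barcodes, a ratio of 1.95 (1.51 to 2.5). The Wnt receptor genes fzd7a and fzd7b had log2 ratios of 0.31 and 0.56. Of 12 Wnt genes with enough labeled counts 2 were higher and 6 lower, beside 2.54% and 11% of all genes. The lower ones included dkk1b (9.09-fold, 5.29 to 17.1), wnt11 (5.12-fold), sp5a (5.55-fold) and axin2 (1.84-fold, 1.28 to 2.74). In the FGF list none of 10 was higher and 3 were lower, beside 2.54% and 11% of all genes. In unlabeled RNA 1 of 3 FGF genes was higher and none lower, beside 2.91% and 12.7% of all genes in unlabeled RNA. The higher one was etv4 at a ratio of 1.5 with an interval of 0.959 to 2.27 that included 1. The ligand fgf8a had 2 labeled counts in her3 barcodes and 264 in other barcodes, and the feedback inhibitor spry4 had 0 labeled counts in her3 barcodes and 120 in other barcodes, which is at least 4.52-fold lower when 3 counts are allowed over the her3 barcodes. The receptor genes fgfr1a and fgfr1b and the target genes etv4 and etv5b had log2 ratios between -0.03 and 0.18.

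The her and Notch genes also divided, with 3 of 12 higher and 6 lower, beside 2.54% and 11% of all genes. her6, her8a and notch3 were higher, with ratios of 1.86 (1.5 to 2.3), 1.98 (1.55 to 2.52) and 1.54 (1.23 to 1.91). her6 was not particular to these barcodes, as it had 432 labeled CPM in the enveloping layer barcodes and 126 CPM in the her3 barcodes. The lower ones were her1, her7, her11, hes6 and the Delta ligands dlc and dld, several of which are known from the segmentation clock of the mesoderm. hes6 had 210 labeled CPM in her3 barcodes and 550 labeled CPM in other barcodes (2.62-fold lower, 2.26 to 3.06), and it stood at 1155 CPM in the msgn1 barcodes. neurog1 and ascl1a, which start neuronal differentiation, had 1 and 0 labeled counts in the her3 barcodes.

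Adhesion genes went both ways. Of 14 genes of the list of midkine, adhesion and guidance genes with enough labeled counts, 2 were higher (mdkb and alcamb), 3 were lower (cdh1, aplnra and aplnrb) and 9 lay between the limits, beside 2.54% higher and 11% lower over all genes. The chemokine receptor gene cxcr4b had 1011 labeled CPM in her3 barcodes and 735 labeled CPM in other barcodes, a ratio of 1.38 (1.28 to 1.48). N-cadherin (cdh2) was at 34.8 labeled CPM in her3 barcodes and 51.1 labeled CPM in other barcodes, 1.47-fold lower (1.01 to 2.20). All 19 cell cycle genes with enough labeled counts lay between the limits, as did most genes (2.54% higher and 11% lower over all genes), with a median log2 ratio of 0.07.

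Markers of other cell types were low but not absent in the her3 barcodes. All 6 axial mesoderm, 8 non-axial mesoderm, 3 endoderm and 9 enveloping layer genes with enough labeled counts were lower, beside 11% of all genes, and so were 4 of 5 genes of non-neural ectoderm, of which tfap2a (1.62-fold lower) had an interval of 0.959 to 2.94 that included 1, and the 1 gene of primordial germ cells. Summed labeled levels were 618 CPM in her3 barcodes and 2271 CPM in other barcodes for non-axial mesoderm, 278 and 952.5 CPM in these groups for axial mesoderm, 51.1 and 326 CPM for endoderm, 316 and 2766 CPM for the enveloping layer, and 109 and 254 CPM for non-neural ectoderm. At least 5 labeled counts of non-axial mesoderm markers were found in 24 her3 barcodes (4.99%) and in 18.5% of the other barcodes. The gap was smaller for primordial germ cell markers, with summed labeled levels of 715 CPM in her3 barcodes and 1434 CPM in other barcodes. At least 5 labeled counts of these markers were found in 25 her3 barcodes (5.20%) and in 7.12% of the other barcodes. One her3 barcode had 61 labeled counts of enveloping layer markers. The defining markers krt4, msgn1 and sox32 had 65, 22 and 24 labeled counts over all her3 barcodes. The part of free RNA and of doublets in these counts was not tested. The labeled log2 ratio of krt4 was 0.045 once barcodes of the mesoderm and enveloping layer rules were left out of the other barcodes, and that of noto was then 0.49. krt4 and noto are themselves genes of these rules, and her3 barcodes that met the rules were kept. Both values therefore follow in part from how the setting was built and are no check of the marker levels. Of the 67 barcodes picked as non-neural ectoderm (at least 3 counts of foxi1, gata2a, gata3, tp63 and tfap2a) 31 also met the enveloping layer rule, and krt4 stood at 9961 labeled CPM over all 67, so they were not used to stand for non-neural ectoderm.

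**Figure D2:**
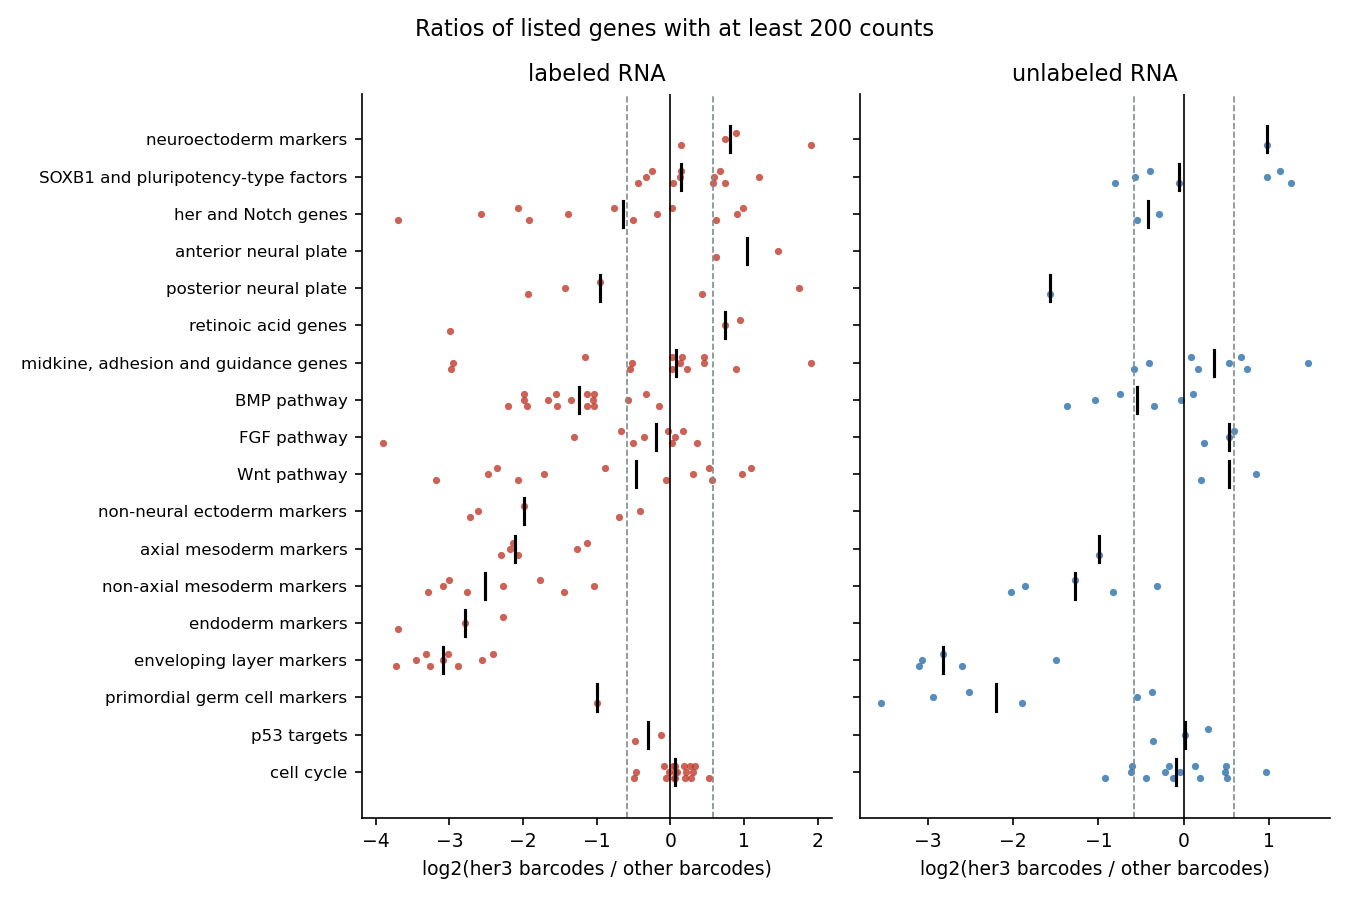
Log2 ratio of her3 barcodes over other barcodes for each listed gene with at least 200 labeled (left) or 200 unlabeled (right) counts, by gene list. Points are genes, black bars are list medians and dashed lines mark 1.5-fold. All 9 enveloping layer genes and 13 of 16 BMP pathway genes lie left of the lower dashed line in labeled RNA, and the 19 cell cycle genes lie between the lines.

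In unlabeled RNA the chemokine receptor gene cxcr4b had the highest ratio. Among 3852 genes with at least 200 unlabeled counts, 112 (2.91%) were at least 1.5-fold higher and 488 (12.7%) at least 1.5-fold lower in her3 barcodes, and the median log2 ratio was -0.10, so that a ratio of 1 here lies slightly above the typical gene. Relative to that median, 189 genes were higher and 355 lower. Among the 10 highest were cxcr4b, asb11, zic2b, si:ch211-152c2.3, si:dkey-228b2.6, ndufa7, sb:cb81, uqcrb and sox19a. cxcr4b had 113 unlabeled CPM in her3 barcodes and 40.9 unlabeled CPM in other barcodes, a ratio of 2.75 (2.24 to 3.37). For zic2b the unlabeled ratio was 2.39 (1.83 to 3.08), for sox19a 2.19 (1.75 to 2.71) and for sox3 1.97 (1.42 to 2.69), each above the labeled ratio of the same gene. The 6 lowest were nanos3, krt96, krt97, krt4, dnase1l4.1 and dnd1. nanos3 and dnd1, maternal genes of the germ plasm, were 11.7-fold (5.64 to 29.1) and 7.68-fold (3.27 to 23.8) lower in unlabeled RNA.

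The maternal level of genes with high unlabeled ratios differed. In the one-cell embryos cxcr4b had 1.57, 1.66 and 21.4 CPM in embryos 1, 2 and 3, so that embryo 3 stood apart. zic2b had 0.937 ± 0.265 CPM (mean ± SD, n = 3). asb11 and sox19a were each listed in only 1 of the 3 embryos, at 0.0979 CPM for asb11 and 0.220 CPM for sox19a. The identifiers of sox3, sox2 and lhx5 had no entry in the tables used, and these genes are not analyzed at that stage. A few genes that were higher in her3 barcodes were present maternally. myclb had 146, 86 and 162 CPM in embryos 1, 2 and 3, otx1 had 441, 145 and 193 CPM, and tcf7l1a had 65.2, 102 and 250 CPM. For tcf7l1a the labeled level was 1.95-fold higher in her3 barcodes while the unlabeled ratio was 1.07 (0.598 to 1.79), and its labeled share was 83.2% in her3 barcodes and 68.2% in other barcodes.

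Unlabeled ratios differed with how new the RNA of a gene was. Genes were placed in bins by their labeled share in the other barcodes. Genes of at least 80% labeled RNA had a median unlabeled log2 ratio of 0.41. Of these 232 genes 29.3% were at least 1.5-fold higher in unlabeled RNA, beside 2.91% of all genes tested. In the bins of 60 to 80%, 40 to 60%, 20 to 40% and under 20% the medians were 0.08, -0.11, -0.12 and -0.12. The unlabeled counts of the other barcodes enter both the bin and the ratio, so bin and ratio are not independent. The part of this in the difference between bins was not tested. Labeled ratios differed less, with medians of 0.06, 0.06, 0.03, 0.04 and -0.04 from the newest to the oldest bin. In the same order, 5.07, 1.87, 1.48, 0.989 and 0.701% of genes were at least 1.5-fold higher in labeled RNA, beside 2.54% of all genes. At least 1.5-fold lower in labeled RNA were 16.1, 6.82, 6.88, 7.20 and 12.1%, beside 11% of all genes. Among genes of under 20% labeled RNA, no gene of 1013 was at least 1.5-fold higher in unlabeled RNA, beside 2.91% of all genes tested. In this bin 107 (10.6%) were at least 1.5-fold lower, beside 12.7% of all genes tested. The lower share was similar in the bins of 20 to 40%, 40 to 60%, 60 to 80% and at least 80%, at 9.80, 11.6, 7.39 and 10.3%.

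Of 7 SoxB1 and pluripotency-type factors with enough unlabeled counts, 3 were higher (sox3, sox19a and zic2b) and nanog was lower in unlabeled RNA, beside 2.91% and 12.7% of all genes. nanog, with 4378, 1763 and 747 CPM in the 3 one-cell embryos, had 160 unlabeled CPM in her3 barcodes and 279 unlabeled CPM in other barcodes, 1.75-fold lower (1.5 to 2.05). pou5f3 was 1.48-fold lower in unlabeled RNA (1.32 to 1.67), and its labeled level was 405 CPM in her3 barcodes and 370 CPM in other barcodes, so that its labeled share was 53.1% in her3 barcodes and 35.6% in other barcodes. The maternal sox19b was 1.32-fold lower with an interval of 0.926 to 1.94 that included 1, and sall4 had a log2 ratio of -0.06. Of 14 cell cycle genes 1 was higher and 3 were lower in unlabeled RNA, beside the same shares of all genes. The higher one was cdk1 at a ratio of 1.95 (1.33 to 2.79), and the cyclin gene ccnb2 was 1.89-fold lower (1.48 to 2.45). The maternal cyclin gene ccna1 was 1.52-fold lower (1.34 to 1.73) and ccne1 1.53-fold lower (1.39 to 1.69), and neither reached the limit relative to the median ratio of all genes. Abundant maternal transcripts such as ccng1 (log2 ratio 0.01) and marcksb (0.09) had near equal unlabeled levels.

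Her3 barcodes held a higher share of labeled RNA than the other barcodes. The labeled share of a barcode had a median of 45.4% in her3 barcodes (10th to 90th percentile 39.3 to 49.9%) and 39.7% in other barcodes (27.7 to 48.2%). A labeled share under 30% was found in 3 her3 barcodes (0.624%) and in 1096 other barcodes (17.2%). The her3 barcodes were deeper, and the difference was also seen within each of 4 bins of depth. Between 744 and 2902 counts the medians were 44.7% in 120 her3 barcodes and 38.5% in 2808 other barcodes, and from 4540 counts upwards they were 44.8% in 121 her3 barcodes and 41.3% in 809 other barcodes. Most her3 counts used by the rule were labeled, and the part of the rule in this difference was not tested. Barcodes chosen by 1 or a few zygotic genes of other lineages also lay above the other barcodes as a whole, at medians of 42% for msgn1, 43% for noto and 46% for the enveloping layer.

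**Figure D3:**
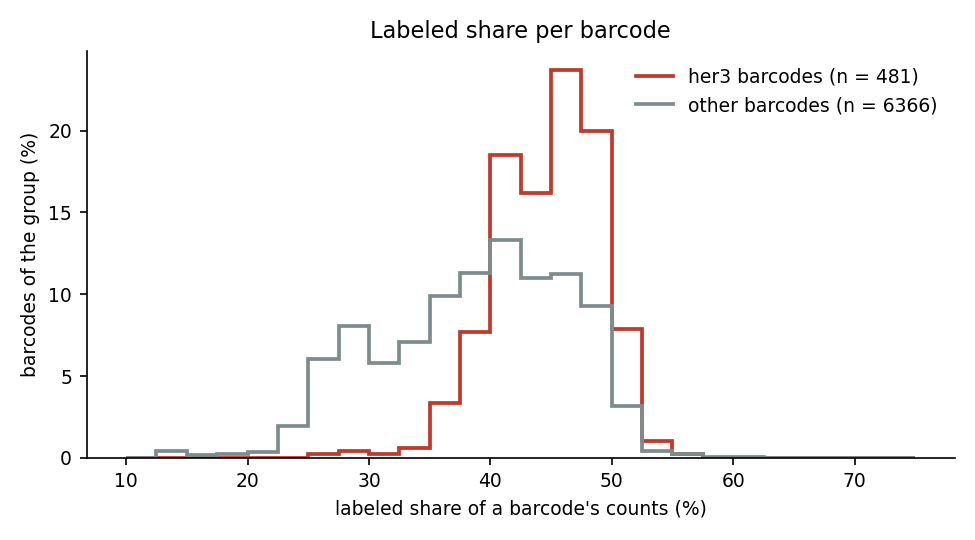
Distribution of the labeled share of counts per barcode, in percent of the barcodes of each group, for her3 barcodes (red) and other barcodes (gray) in steps of 2.5%. The medians are 45.4% in her3 barcodes and 39.7% in other barcodes, and the part of the gray line under 30% has nearly no counterpart in red.

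Barcodes just inside and just outside the threshold were compared with those farther from it. Labeled mdkb was 26.2 CPM in barcodes without her3, 69.8 CPM at 1 count, 119 CPM at 2 and 91, 128 and 144 CPM at 3, 4 to 5 and 6 or more counts. lhx5 was 33.1 CPM without her3 and 112 CPM at 1 count, close to the 111 CPM at 2 counts. The 552 barcodes with 1 her3 count are part of the other barcodes, so that these hold barcodes with neural genes. sox3 was 643 CPM at 1 count and 445 CPM (302 to 632) at 6 or more. ved was 2633 CPM without her3, 1082 CPM at 1 count and 735 CPM at 2 counts. It was 666 CPM at 3, 530 CPM at 4 to 5 and 273 CPM (164 to 426) at 6 or more counts. From 2 counts on, the ved intervals of neighboring groups overlapped. They were 652 to 826 CPM at 2, 567 to 777 CPM at 3 and 424 to 654 CPM at 4 to 5 counts. bambia had 552, 334, 202, 211, 128 and 71.8 CPM in the same groups, with no fall between 2 and 3 counts. Depth differed over the same groups, with a median of 2916 counts without her3 and 4284 counts at 6 or more her3 counts, and its part in these differences was not tested.

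**Figure D4:**
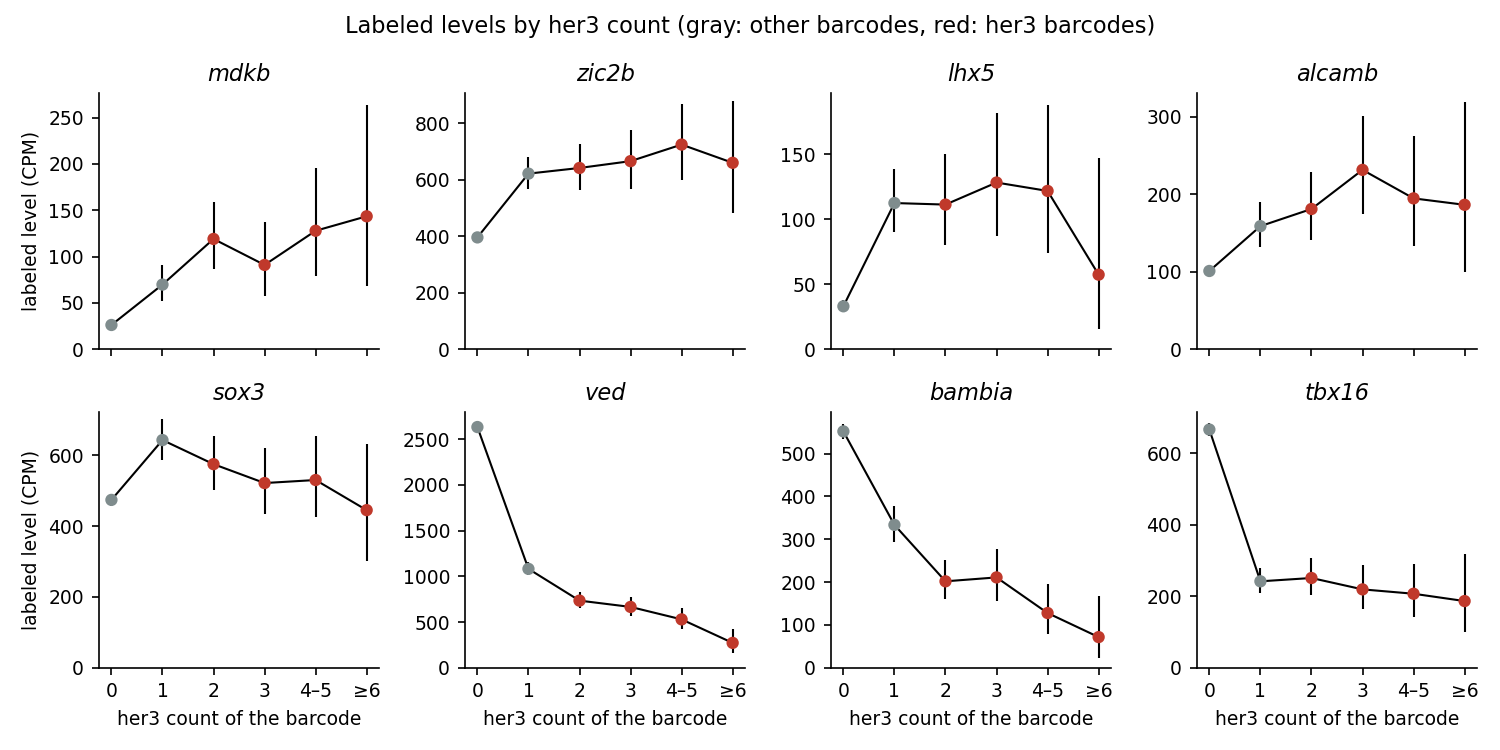
Labeled level in CPM of 8 genes by the her3 count of the barcode (0, 1, 2, 3, 4 to 5, 6 or more), with exact 95% intervals. Gray points are other barcodes and red points are her3 barcodes. mdkb and alcamb are higher from 2 counts on than at 0, whereas ved falls from 2633 CPM at 0 to 273 CPM at 6 or more her3 counts. The ved intervals of neighboring groups overlap from 2 counts on.

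The her3 barcodes were divided by their labeled counts of anterior and posterior genes. A labeled count of an anterior gene (otx2a, otx2b, otx1, six3a, six3b or hesx1) was found in 138 her3 barcodes (28.7%) and in 8.29% of other barcodes, and a labeled count of a posterior gene (hoxb1b, cdx4, cdx1a, gbx1, irx7 or meis3) in 127 her3 barcodes (26.4%) and in 28.4% of other barcodes. Both kinds were found in 30 her3 barcodes and neither in 246. Posterior counts were present in 21.7% of the her3 barcodes with an anterior count and in 28.3% of those without. The barcodes with an anterior count were deeper (median 1754 against 1545 labeled counts). This difference has no interval and was not tested, and classes cut from counts are ranges, not cell types.

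Genes that were not used for this division differed between the 108 anterior-only and the 97 posterior-only her3 barcodes, which had similar depth (medians of 1670.5 and 1780 labeled counts). lhx5 had 163 CPM in anterior-only and 64 CPM in posterior-only barcodes (ratio 2.55, 1.30 to 5.30), and cyp26a1 had 311 and 177 CPM in the same groups (ratio 1.76, 1.15 to 2.73). The T-box gene tbxta, known from the germ ring and notochord, had 30.6 CPM in anterior-only and 261 CPM in posterior-only barcodes, a ratio of 0.12 (0.04 to 0.27). ved had 424 CPM in anterior-only and 959 CPM in posterior-only barcodes (ratio 0.44, 0.34 to 0.57), and tbx16 had 189 and 354 CPM in the same groups (ratio 0.53, 0.35 to 0.80). sox3, sox19a and zic2b had ratios of 0.96, 0.93 and 1.02, with intervals that included 1. irx1b, although listed as posterior, had 97 CPM in anterior-only and 44.3 CPM in posterior-only barcodes, with an interval of the ratio that included 1 (0.94 to 5.50).

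The 30 her3 barcodes with a labeled cdx4 count gave 51 of the 88 labeled tbxta counts of all members. They had 770 CPM of tbx16, 553 CPM of tbxta and 1637 CPM of ved, against 164, 48.1 and 520 CPM in the 451 her3 barcodes without cdx4. The ratios were 4.70 (3.46 to 6.34) for tbx16, 11.5 (7.39 to 18.1) for tbxta and 3.15 (2.59 to 3.81) for ved. The mesoderm genes noto and msgn1 were higher as well, at ratios of 4.17 (2.38 to 7.11) and 4.77 (1.73 to 12.2). sox3, zic2b and mdkb had ratios of 0.87, 0.92 and 0.94, all with intervals that included 1. Other neural plate genes were lower in the barcodes with cdx4. lhx5 had a ratio of 0.17 (0.02 to 0.65), with 2 counts in the barcodes with cdx4, and cyp26a1 had a ratio of 0.56 (0.30 to 0.97). The barcodes with cdx4 were deeper, at a median of 5755 counts against 3543, and the part of doublets in them was not tested.

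**Figure D5:**
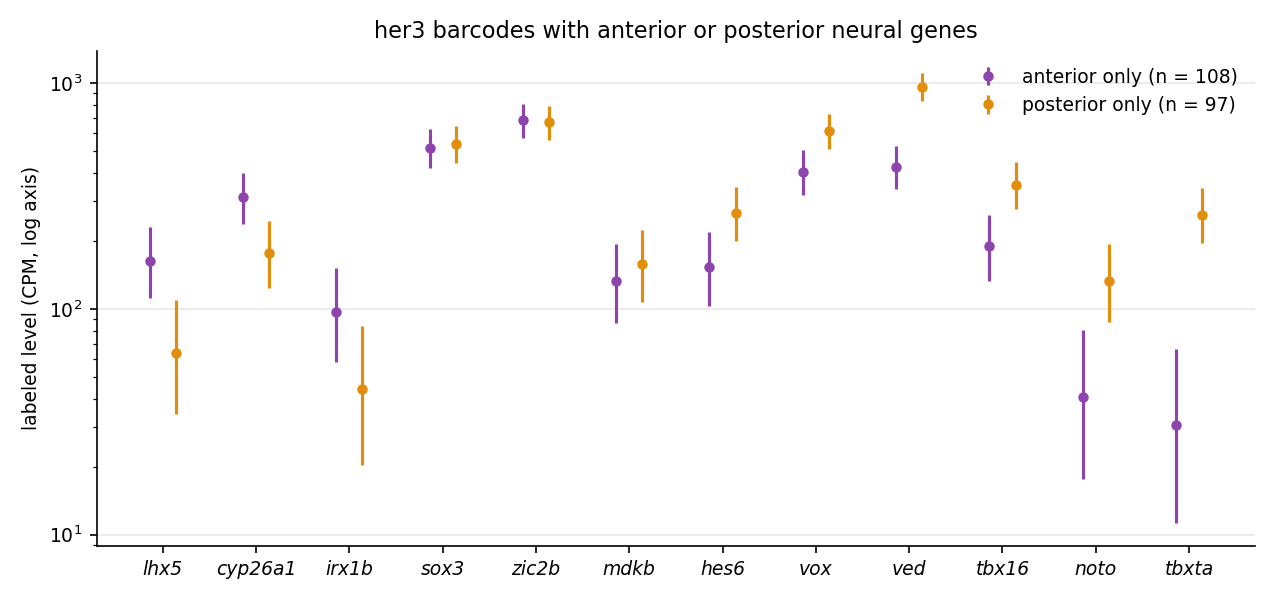
Labeled level in CPM (log axis) of 12 genes in her3 barcodes with an anterior count only (purple) or a posterior count only (orange), with exact 95% intervals. lhx5 and cyp26a1 are higher in the anterior-only barcodes, tbxta (30.6 and 261 CPM), ved and tbx16 are higher in the posterior-only barcodes, and sox3 and zic2b nearly coincide.

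The her3 barcodes lay near each other in labeled RNA more than in unlabeled RNA. Each thinned barcode was placed by 2000 variable genes without her3, and its 20 nearest neighbors were counted. In labeled RNA 24.6% of the neighbors of a her3 barcode were her3 barcodes, against 8.76% of all barcodes used, that is 2.80 times that share. In unlabeled RNA it was 13.5%, or 1.54 times. Among barcodes with 1 her3 count 16.8% of labeled neighbors were her3 barcodes, and among those without her3 it was 6.62%. msgn1 barcodes were 0.592% of the labeled neighbors of her3 barcodes, against 8.28% of all barcodes, whereas in unlabeled RNA they were 8.95% of the neighbors. Axial mesoderm barcodes were less reduced, at 2.82% of labeled and 4.54% of unlabeled neighbors, against 4.50% of all barcodes. Enveloping layer barcodes were rare in both, at 0.197% of labeled and 0.121% of unlabeled neighbors, against 2.0% of all barcodes.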

How the data were processed

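One scSLAM-seq library at 6 h.p.f. and the tomo-seq tables of 3 one-cell stage embryos were used, and the frog oocyte samples were left out. For scSLAM-seq the authors sorted the reads of cell barcodes into labeled (more than a single T-to-C change per UMI, a random tag that marks 1 molecule) and unlabeled ones, with GRCz11 as genome, and deposited whole-number counts for each. For tomo-seq the authors used GRCz10 and deposited expected counts, which are UMI numbers adjusted for molecules that drew the same UMI; spike-ins were left out here. Per the labels, embryo 3 was read with shorter UMIs than embryos 1 and 2. CPM of the 3 embryos were matched to the cells by Ensembl identifier.

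Counts were summed per group and given as CPM of that RNA kind without her3. Intervals were Poisson for levels, Clopper-Pearson for shares and conditional binomial for ratios, all at 95% and for counting error only. Ratios and intervals were also run on simulated Poisson sums with set ratios. This checks the calculation only, since differences between cells were not simulated. Genes with at least 200 counts were compared, and a ratio of 1.5 or its inverse was used as the limit. Genes in the text are members of 18 gene lists and the 15 highest and 10 lowest labeled and 10 highest and 6 lowest unlabeled ratios, of which some are not reported here. The members, lists and alternatives were chosen with earlier results of these data known. Of 229 listed genes 228 were found. Scrublet (expected rate 0.05) called 1 of 6847 barcodes (0.0146%) a doublet and so did not work, and no doublets were removed. Neighbors used 30 principal components. Tools were Python 3.11.15, numpy 2.4.6, pandas 2.3.3, scipy 1.17.1, scikit-learn 1.9.0, scanpy 1.11.5 and matplotlib 3.10.9.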

Additional observations from a re-analysis of the deposited data

How the results depend on the processing

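No paired analysis was possible because there was 1 library and no test. With 1 library, no scSLAM-seq value has an error between embryos, and expression of single genes in single barcodes rests on few counts. Requiring 3 her3 counts left 252 members. With a minimum of 50 counts, 387 labeled genes were higher and 1237 lower, and 455 unlabeled genes were higher and 1452 lower. With a 2-fold limit these were 13 and 228 labeled and 22 and 151 unlabeled genes. Dividing by the median ratio gave 189 higher and 355 lower unlabeled genes, a split of calls nearer to even than 112 and 488. Without thinning, her3 barcodes were 31.5% of labeled and 22.4% of unlabeled neighbors. Among 102 named genes past the limit in labeled RNA, weighting the other barcodes to the depth of the her3 barcodes kept all 102, and averaging shares per barcode kept 98. Leaving out the deepest 5% of barcodes kept 98 of 100. In that setting the labeled ratios of 34 of 162 named genes moved outside their main interval. The barcodes left out were 12.5% of the her3 barcodes and 4.43% of the other barcodes. otx2a was at a log2 ratio of 0.32 when 2 labeled her3 counts were required. The labeled log2 ratio of tfap2a was -0.03 with shares per barcode and -0.33 without the deepest barcodes, and -2.17 with at least 3 her3 counts and -1.13 with depth weighting.

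An alternative chosen after seeing the data left out other barcodes that met the non-axial mesoderm, axial mesoderm or enveloping layer rule. It kept 84 of the 102 genes past the limit, and its construction takes away the cells in which the genes used by those rules are high. Log2 ratios then turned to 0.49 for noto, 0.045 for krt4, 0.68 for grhl3, 0.22 for ppl and 0.0055 for dnase1l4.1 in labeled RNA, and to 0.025 for krt92 and 0.59 for tmsb1 in unlabeled RNA. The labeled log2 ratios of sox2, zic2b, sox11a, notch3 and sox3 were 0.50, 0.50, 0.54, 0.42 and -0.08 in this setting. Leaving out each one-cell embryo in turn moved the mean of nanog between 1255 and 3071 CPM, that of pou5f3 between 117 and 307 CPM and that of zic2b between 0.854 and 1.09 CPM.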

Other observations

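Groups of genes outside the lists, chosen after their values were seen, also differed between the 2 kinds of RNA. Over all genes tested, the median log2 ratio was -0.10 in unlabeled and 0.03 in labeled RNA. The median unlabeled ratio was thus below 1 and the median labeled ratio slightly above 1. Of 81 cytosolic ribosomal protein genes with enough unlabeled counts, 80 had an unlabeled ratio above 1, and their summed unlabeled level was 118789 CPM in her3 barcodes and 96898 CPM in other barcodes, a ratio of 1.23 (1.22 to 1.23). Their summed labeled ratio was 1.04 (1.03 to 1.05). None of these genes was at least 1.5-fold higher or lower in either kind of RNA. Nuclear genes of the respiratory chain, among them ndufa7 and uqcrb, had a summed unlabeled ratio of 1.18 (1.16 to 1.2) and a summed labeled ratio of 1.02 (1.01 to 1.03), and 13 of 68 were at least 1.5-fold higher and 3 lower in unlabeled RNA, beside 2.91% and 12.7% of all genes. The genes of the mitochondrial genome went in opposite directions. All 12 with enough labeled counts had a labeled ratio below 1, with a summed level of 41241 CPM in her3 barcodes and 56805 CPM in other barcodes, while 10 of 11 had an unlabeled ratio above 1, with 33565 CPM in her3 barcodes and 29753 CPM in other barcodes. No gene of the mitochondrial genome reached the 1.5-fold limit in either kind of RNA.

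The lowest labeled genes held few counts in her3 barcodes. lhx1a had 0 labeled counts in her3 barcodes and 294 in other barcodes, at least 11.1-fold lower when 3 counts are allowed over the her3 barcodes. agr1 had 1 labeled count in her3 barcodes and 398 in other barcodes (44.9-fold lower, 8.02 to 1779). tmsb1 had 34.8 CPM in her3 barcodes and 932 CPM in other barcodes (26.8-fold lower, 18.7 to 39.7).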
